A study of Mus musculus with 24 samples.

Results

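The 9 genes described here belong to adrenergic receptor and cAMP signaling, and they were taken from the expression table by gene symbol, not by their values. All 9 were found among the 14912 genes of the table. They comprise 3 receptor genes (Adrb1, Adra1a and Adra1b), the G protein gene Gnas, the adenylyl cyclase genes Adcy5 and Adcy6, the phosphodiesterase genes Pde3a and Pde4d, and the receptor kinase gene Grk5.

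In heart muscle, noradrenaline and adrenaline bind beta-adrenergic receptors, which act through the stimulatory G protein on adenylyl cyclase and so raise cAMP. Protein kinase A, which cAMP activates, phosphorylates proteins of calcium cycling and of the contractile filaments, while phosphodiesterases break cAMP down and G protein-coupled receptor kinases desensitize the receptors. Alpha1-adrenergic receptors couple instead to Gq and phospholipase C and are known for hypertrophic signaling in cardiomyocytes.

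The hypertensive-LVH group consisted of 12 left ventricles from mice infused with ANG II over 7 days (dose 1500 ng/kg/min), and the control group of 12 left ventricles from mice that received saline over the same time. Both solutions were delivered by osmotic mini-pumps under the skin, and all mice were male wild-type C57BL/6J. The study describes more samples in each group than these 12, and the others were not analysed here. The age of the mice is not given in the sources used here. RNA sequencing gave 1 value per gene and sample, which the authors call FPKM, a unit scaled to the length of the transcript and to the mapped reads of the sample, in which levels of different genes can be set side by side.

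The values are not plain FPKM. Of all values, 2741 (0.766%) were below 0, and exact ties between samples divided each group into 4 sets, samples 1 to 3, 4 to 6, 7 to 9 and 10 to 12, with 215 to 541 tied genes for samples of a group within a set and 0 between sets. The lowest value among the 9 genes was 3.61 FPKM. The values of a sample summed to between 460715 and 515185 in the hypertensive-LVH group and to between 482319 and 567727 in the control group, and the number of sequenced fragments is not given in the sources used here. Of 6 hypertrophy response genes, 5 rose in the hypertensive-LVH group. Cardiomyocyte markers, which define the labelled tissue, were abundant, and their summed level was 36639 to 54968 FPKM in the hypertensive-LVH group and 47972 to 62642 FPKM in the control group, with 5 of 10 lower, 0 higher and no marker at a median of 0. In 1 sample of each group (hypertensive-LVH 6 and control 2) the atrial myosin gene Myl7 stood at 1040 and 1443 FPKM, against at most 220 FPKM in the others. All 9 macrophage markers, 5 of 9 fibroblast markers and all 5 red blood cell markers rose. Their summed levels were 267 to 717 against 181 to 388 FPKM for macrophages, 782 to 2784 against 148 to 1079 FPKM for fibroblasts and 779 to 6443 against 92.2 to 2949 FPKM for red blood cells (hypertensive-LVH against control). Of the other lists, 2 of 7 smooth muscle, 2 of 9 endothelial, 1 of 6 pericyte, 2 of 7 lymphocyte and 1 of 4 atrial markers rose, 1 endothelial, 2 pericyte and 1 lymphocyte marker fell, and 0 of 5 adipocyte and 0 of 5 sympathetic nerve and glia markers passed the limma test (0 and 1 at an unadjusted p under 0.05). What part these tissue differences have in the values of the 9 genes was not tested, and in bulk tissue fewer cells of a type and less RNA per cell cannot be told apart.

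The promoter windows of the 3 genes that differed between the groups are shown because the motifs of cAMP-responsive transcription can be looked for in them. They are RefSeq windows of the GRCm38.p6 assembly, 300 bases from upstream of the annotated start to just past it, written 5′ to 3′ on the strand of the gene, and 6 of the 9 genes had such a window. Capitals mark the GC box GGGCGG and the CRE half-site TGACG on either strand. The first window is that of Adrb1 at chr19:56721867-56722166 (plus strand), then come those of Adra1b at chr11:43836440-43836739 and chr11:43901188-43901487 (minus strand), and last that of Grk5 at chr19:60889499-60889798 (plus strand).
Adrb1: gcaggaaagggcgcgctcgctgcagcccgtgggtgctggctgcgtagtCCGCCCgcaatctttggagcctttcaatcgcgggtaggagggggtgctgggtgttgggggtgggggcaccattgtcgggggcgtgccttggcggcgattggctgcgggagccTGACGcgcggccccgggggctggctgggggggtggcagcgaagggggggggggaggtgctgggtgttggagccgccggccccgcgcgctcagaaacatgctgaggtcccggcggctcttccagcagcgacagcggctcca
Adra1b, first window: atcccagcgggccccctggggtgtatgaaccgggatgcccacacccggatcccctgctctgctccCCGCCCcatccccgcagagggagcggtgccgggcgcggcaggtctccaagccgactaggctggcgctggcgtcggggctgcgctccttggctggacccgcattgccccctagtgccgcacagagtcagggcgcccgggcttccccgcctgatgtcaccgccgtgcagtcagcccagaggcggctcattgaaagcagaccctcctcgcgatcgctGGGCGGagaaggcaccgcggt
Adra1b, second window: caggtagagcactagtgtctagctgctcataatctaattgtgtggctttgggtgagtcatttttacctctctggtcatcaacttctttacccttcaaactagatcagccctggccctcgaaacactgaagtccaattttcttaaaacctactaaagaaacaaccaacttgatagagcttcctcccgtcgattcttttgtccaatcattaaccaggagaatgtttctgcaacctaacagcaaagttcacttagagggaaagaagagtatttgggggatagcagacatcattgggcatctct
Grk5: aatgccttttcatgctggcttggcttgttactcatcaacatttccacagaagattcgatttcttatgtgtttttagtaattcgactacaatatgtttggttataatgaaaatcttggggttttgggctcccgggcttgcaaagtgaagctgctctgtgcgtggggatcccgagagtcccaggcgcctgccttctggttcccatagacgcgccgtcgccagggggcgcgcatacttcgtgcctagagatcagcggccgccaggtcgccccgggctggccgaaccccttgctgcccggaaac
The Adrb1 window held 1 TGACG and 1 GC box, the first Adra1b window held 2 GC boxes, and the second Adra1b window and the Grk5 window held none of either. Among 32841 mouse promoter windows of the same length, 20.8% held TGACG and 35.7% held the GC box. The full palindrome TGACGTCA, which contains TGACG, occurred in 1.79% of all windows and in 0 windows of the 6 genes, and the E-box CACGTG in 7.15% and 0. G and C made up 72.3% of the Adrb1 window, 71.3% and 42.3% of the Adra1b windows and 54.3% of the Grk5 window, where the median over all windows was 52.7%. These are letters in a window and not measured binding sites.

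In the control group Gnas was by far the most abundant of the 9 transcripts, at 656 ± 40.8 FPKM (SD, n = 12 in each group throughout). Adcy6 followed at 53.4 ± 5.84 FPKM and Adcy5 at 23.9 ± 2.10 FPKM, and the ranges of these 3 genes did not overlap. Below them came Adra1b, Grk5, Adrb1, Pde3a, Pde4d and Adra1a, from 18.1 ± 3.12 down to 6.85 ± 2.04 FPKM, and each of these overlapped its neighbour in the order, as Adcy5 did with Adra1b. In the hypertensive-LVH group the first 3 places were the same, Grk5 stood above Adra1b, and Adrb1 stood below Pde3a and Pde4d. Adrb1 and Pde4d could not be ordered there, since Pde4d was the higher in only 4 of 12 samples although its mean was higher.

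**Figure D1:**
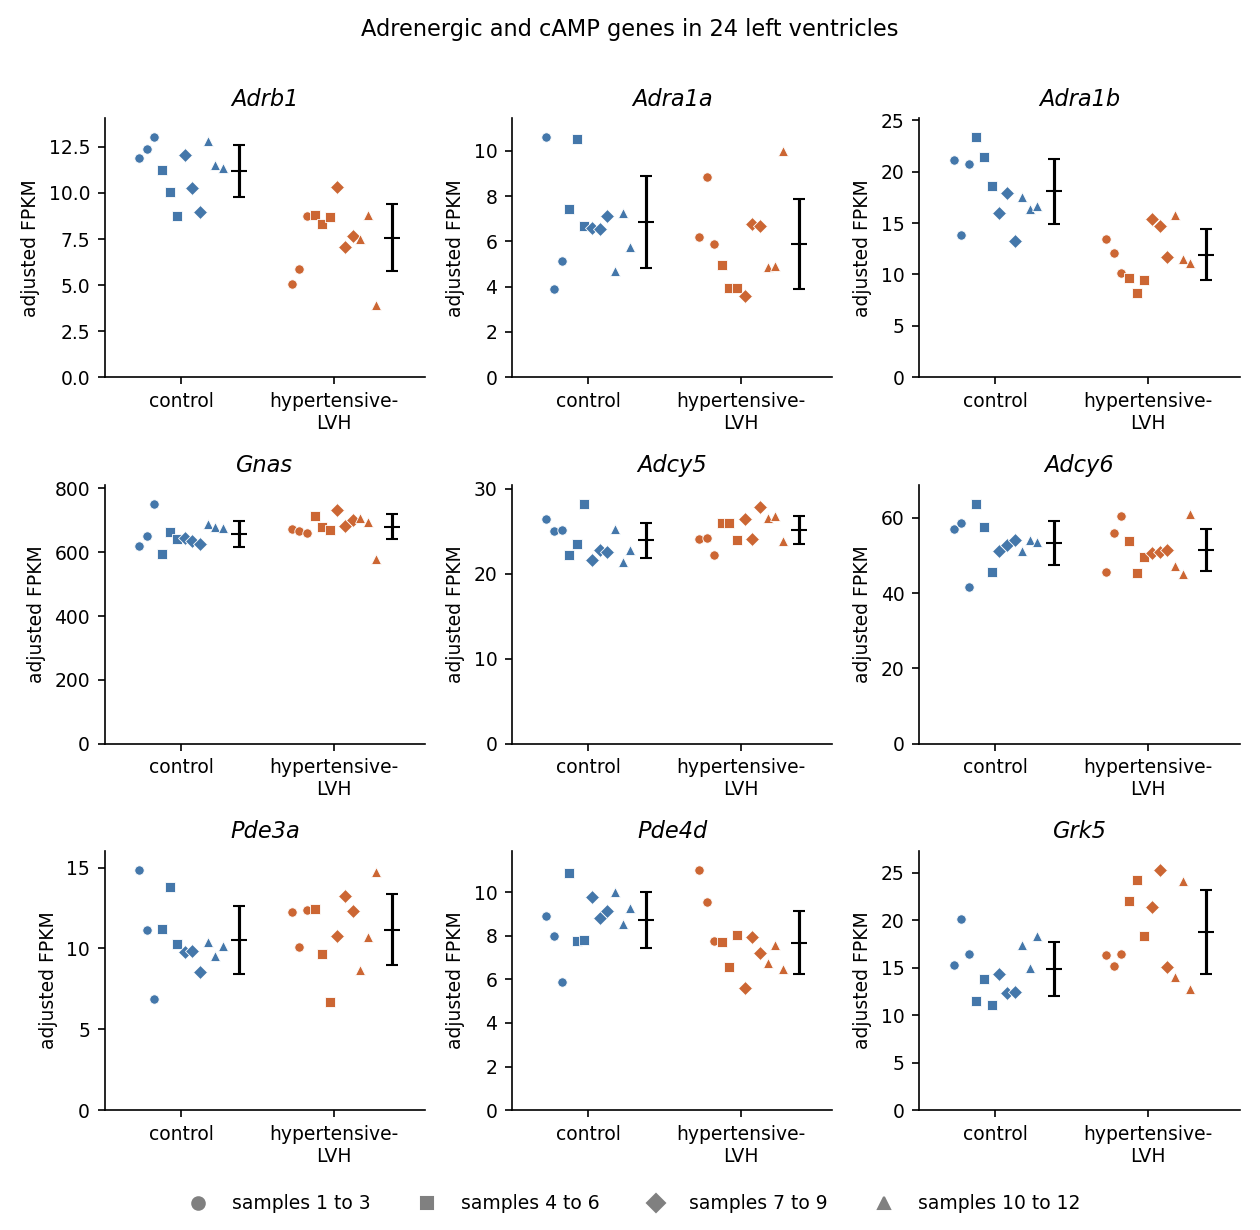
Adjusted FPKM of each gene (vertical axis, from 0) in the 12 control (blue) and 12 hypertensive-LVH (orange) left ventricles, with marker shapes for the 4 sets of samples and bars for the mean ± SD. Every hypertensive-LVH value of Adrb1 and Adra1b lies below the control median, while the Gnas, Adcy5 and Adcy6 clouds lie at nearly the same height in both groups.

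Whether these levels differed between the hypertensive-LVH and control groups was tested with limma on log2(FPKM + 1) over 14026 genes, and adjusted p-values are Benjamini-Hochberg values over all of them. Of the 9 genes, 3 passed an adjusted p of 0.05 (33.3%), Adrb1 and Adra1b lower and Grk5 higher. Over all genes tested the share was 33.5%, with 20.9% higher and 12.6% lower, so that the count for the 9 genes is near the background. With the further threshold of the study, an absolute log2 fold change over 0.5, Adrb1 and Adra1b remained, both lower, where 5.92% of all genes passed, 1.4% as lower and 4.52% as higher. Adrb1 fell short of that fold without samples 1 to 3 (-0.43), samples 10 to 12 (-0.45), hypertensive-LVH 1 (-0.49) or hypertensive-LVH 12 (-0.47), and Adra1b without samples 4 to 6 (-0.38). In 0 of the 9 genes were the ranges of the groups apart, against 0.756% of all genes. The median log2 fold change of the 9 genes was -0.05, and that of all genes was 0.05.

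Adrb1 encodes the beta1-adrenergic receptor, the main beta receptor of cardiomyocytes. It lies at chr19:56722199-56733113 on the plus strand (GENCODE vM21, GRCm38). Its level was 8.74, 11.4 and 13.0 FPKM (lowest, median and highest) in the control group and 3.94, 7.98 and 10.3 FPKM in the hypertensive-LVH group. All 12 hypertensive-LVH samples lay below the control median and 8 of them below the lowest control, so that the ranges overlapped only in part. The mean went from 11.2 ± 1.41 to 7.57 ± 1.82 FPKM, a ratio of 0.676. The log2 fold change was -0.53 ± 0.11 (SE, 95% interval -0.75 to -0.32, limma adjusted p = 5.2e-04). The difference was negative in each set of samples, at -0.86 in samples 1 to 3, -0.19 in 4 to 6, -0.30 in 7 to 9 and -0.79 in 10 to 12, and the difference between sets did not pass the test (limma F = 2.87, adjusted p = 0.227).

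Adra1b and Adra1a encode the alpha1-adrenergic receptor subtypes that signal through Gq. Adra1b lies at chr11:43774606-43901210 on the minus strand and Adra1a at chr14:66635251-66771168 on the plus strand. The Adra1b level was 13.3, 17.7 and 23.3 FPKM (lowest, median and highest) in the control group and 8.18, 11.6 and 15.8 FPKM in the hypertensive-LVH group. As for Adrb1, all 12 hypertensive-LVH samples lay below the control median, and 8 lay below the lowest control. The mean went from 18.1 ± 3.12 to 11.9 ± 2.45 FPKM, a ratio of 0.660, with a log2 fold change of -0.57 ± 0.10 (95% interval -0.77 to -0.36, limma adjusted p = 1.71e-04). The size of the Adra1b difference varied between the sets, the only such case among the 9 genes past an adjusted p of 0.05 (limma F = 6.72, adjusted p = 0.0410), where 7.49% of all genes passed. It was -0.59 in samples 1 to 3, -1.13 in 4 to 6, -0.17 in 7 to 9 and -0.39 in 10 to 12. Without samples 4 to 6 the log2 fold change was -0.38 (limma adjusted p = 0.0084).

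Adra1a was the least abundant of the 9 genes in both groups. Its level was 3.88, 6.63 and 10.6 FPKM (lowest, median and highest) in the control group and 3.61, 5.42 and 9.99 FPKM in the hypertensive-LVH group, which overlapped over nearly their whole ranges. The log2 fold change was -0.20 ± 0.15 (95% interval -0.50 to 0.11, limma adjusted p = 0.305). Its difference was -0.79 in samples 4 to 6, against 0.16, -0.26 and 0.09 in samples 1 to 3, 7 to 9 and 10 to 12.

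Gnas encodes the alpha subunit of the stimulatory G protein, which carries the signal from the beta receptor to adenylyl cyclase. It lies at chr2:174284320-174346744 on the plus strand and shares exon bases with 2 genes on the opposite strand, Nespas (988 bases) and Gm20721 (1469 bases). Neither is among the genes of the table, and the strand setting of the counting is not given in the sources used here. The Gnas level was 594, 647 and 752 FPKM (lowest, median and highest) in the control group and 579, 681 and 732 FPKM in the hypertensive-LVH group. Although 11 of 12 hypertensive-LVH samples lay above the control median, the log2 fold change was 0.05 ± 0.04 (95% interval -0.03 to 0.14, limma adjusted p = 0.333). With quantile normalization of the samples it was 0.14 (adjusted p = 0.00454).

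Adcy5 and Adcy6 encode the main adenylyl cyclases of the cardiomyocyte, both inhibited by calcium. The Adcy5 level was 21.4, 23.2 and 28.3 FPKM (lowest, median and highest) in the control group and 22.3, 25.1 and 27.9 FPKM in the hypertensive-LVH group, a log2 fold change of 0.07 ± 0.05 (95% interval -0.02 to 0.17, limma adjusted p = 0.214). The Adcy6 level was 41.6, 53.8 and 63.7 FPKM in the control group and 45.0, 50.8 and 61.1 FPKM in the hypertensive-LVH group, a log2 fold change of -0.05 ± 0.06 (95% interval -0.18 to 0.08, limma adjusted p = 0.537). For both cyclases the groups overlapped over most of their ranges, and the intervals are the narrowest of the 9 genes besides that of Gnas. Adcy5 lies at chr16:35154877-35305738 on the plus strand and Adcy6 at chr15:98589973-98610076 on the minus strand, where it shares 605 exon bases with the antisense gene Gm29331.

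Pde3a and Pde4d encode phosphodiesterases that hydrolyse cAMP in cardiomyocytes, the former inhibited by cGMP and the latter specific for cAMP. The Pde3a level was 6.89, 10.2 and 14.8 FPKM (lowest, median and highest) in the control group and 6.67, 11.5 and 14.7 FPKM in the hypertensive-LVH group, a log2 fold change of 0.08 ± 0.11 (95% interval -0.14 to 0.29, limma adjusted p = 0.605). The Pde4d level was 5.86, 8.87 and 10.9 FPKM in the control group and 5.62, 7.65 and 11.0 FPKM in the hypertensive-LVH group. Only 2 of 12 hypertensive-LVH samples lay above the Pde4d control median, yet the ranges were almost the same. The Pde4d log2 fold change was -0.17 ± 0.09 (95% interval -0.35 to 0.01, limma adjusted p = 0.128). It was 0.29 in samples 1 to 3 and -0.21, -0.38 and -0.38 in samples 4 to 6, 7 to 9 and 10 to 12, and without samples 1 to 3 it was -0.32 (adjusted p = 0.00257). Pde3a lies at chr6:141249269-141507448, where it shares 741 exon bases with the antisense gene Gm28523, and Pde4d at chr13:108449948-109953461, both on the plus strand.

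Grk5 encodes a G protein-coupled receptor kinase, which phosphorylates active receptors and so limits their signaling. It lies at chr19:60889749-61095968 on the plus strand. Its level was 11.1, 14.7 and 20.2 FPKM (lowest, median and highest) in the control group and 12.8, 17.4 and 25.3 FPKM in the hypertensive-LVH group. Of the 12 hypertensive-LVH samples, 10 lay above the control median and 5 above the highest control. The mean went from 14.8 ± 2.84 to 18.8 ± 4.43 FPKM, with a log2 fold change of 0.31 ± 0.11 (95% interval 0.08 to 0.54, limma adjusted p = 0.0381), short of the fold threshold of the study. The difference was 0.78 in samples 4 to 6 and 0.59 in 7 to 9, but -0.10 in samples 1 to 3 and -0.04 in 10 to 12, and the difference between sets missed the threshold (limma F = 5.53, adjusted p = 0.0648). Without samples 4 to 6 the log2 fold change was 0.15 (adjusted p = 0.414), without samples 7 to 9 it was 0.21 (adjusted p = 0.22), and with the set as a term in the fit the adjusted p was 0.0588. Each set holds 3 samples of each group, so the set term could not change the log2 fold change, which stays at 0.31 by design. It can change only the standard error and p-value, and the share of all genes passing went from 33.5% to 27.9%. The Grk5 difference was above 0 in 2 of the 4 sets.

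**Figure D2:**
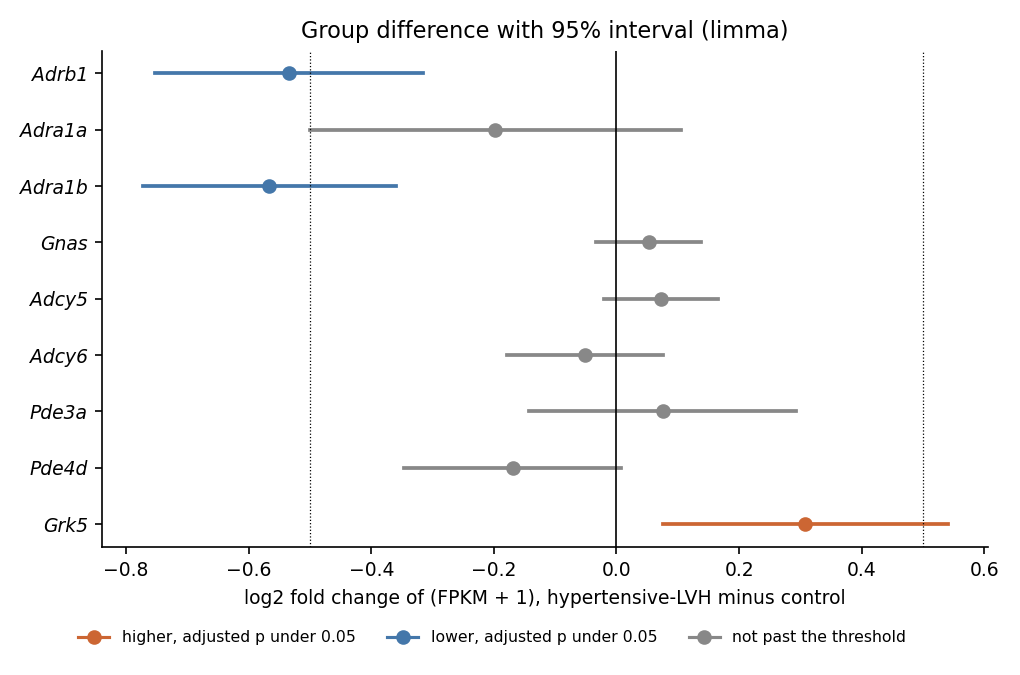
Log2 fold change of (FPKM + 1), hypertensive-LVH minus control (horizontal axis), with its 95% interval for each gene, in blue for lower, orange for higher and grey for not past an adjusted p of 0.05. Adrb1 at -0.53 and Adra1b at -0.57 lie beyond the dotted line at -0.5, Grk5 at 0.31 lies above 0, and the other 6 intervals include 0.

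**Figure D3:**
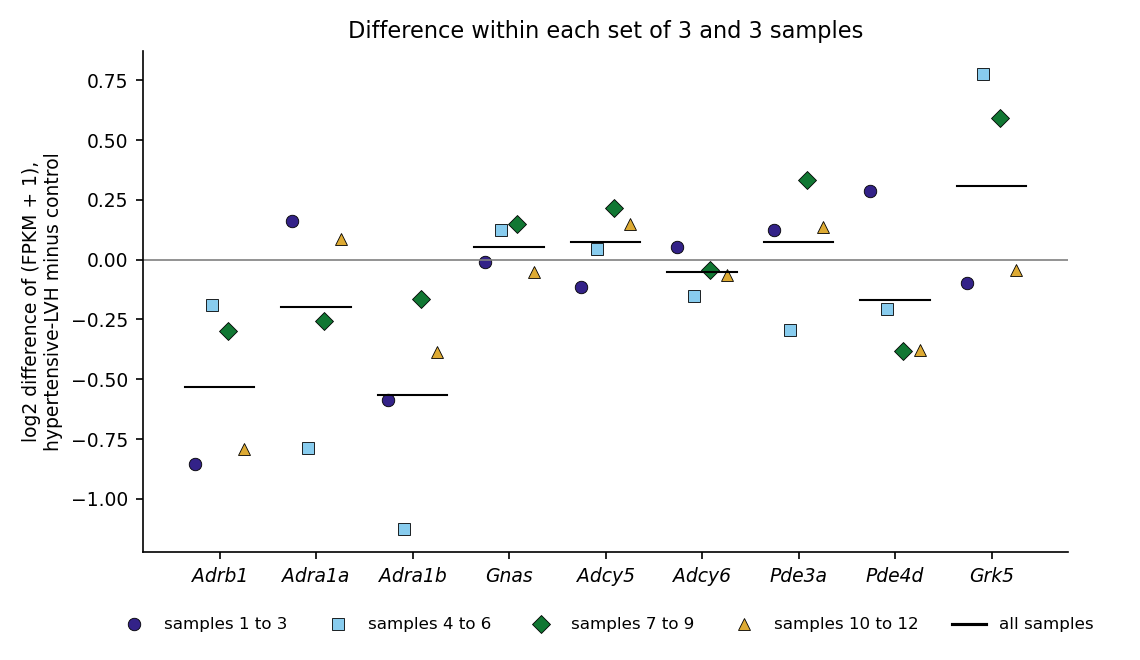
Log2 difference of (FPKM + 1), hypertensive-LVH minus control (vertical axis), within each set of 3 and 3 samples, with a bar for all samples. Adrb1 and Adra1b were below 0 in all 4 sets, and the Grk5 difference was 0.78 and 0.59 in samples 4 to 6 and 7 to 9 and near 0 in the others.

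Leaving out both samples with high atrial markers kept the count at 3 of 9, with log2 fold changes of -0.54 for Adrb1, -0.57 for Adra1b and 0.35 for Grk5 (limma adjusted p = 0.000944, 0.000188 and 0.0251).

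For 3 pairs of related genes, log2 ratios within each sample, taken as the difference of log2(FPKM + 1) and so including the pseudocount of 1, were compared by two-sided permutation tests, with p-values adjusted over the 3. The Adra1a to Adra1b ratio was -1.31 ± 0.32 in the control group and -0.94 ± 0.45 in the hypertensive-LVH group, a difference of 0.37 (permutation p = 0.0304, adjusted p = 0.0911), and 10 of 12 hypertensive-LVH samples lay above the control median. The Pde3a to Pde4d ratio differed by 0.24 (permutation p = 0.0722, adjusted p = 0.108), and the Adcy5 to Adcy6 ratio by 0.12 (permutation p = 0.185, adjusted p = 0.185). None of the 3 passed after adjustment. By exact permutation within the 4 sets the unadjusted p-values were 0.0444, 0.0943 and 0.217 in the same order.

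Among the 36 pairs of the 9 genes, 0 were correlated past an adjusted p of 0.05 over the 24 samples once the mean of each group within each set was removed, and 3 were at an unadjusted permutation p under 0.05. The strongest was Gnas with Adcy6 (Pearson r = -0.695, permutation p = 0.0379, adjusted p = 0.455, Spearman rho = -0.619, permutation p = 0.0233, adjusted p = 0.439), and r was -0.496 without the 2 samples farthest from the Gnas median. On the same scale, the genes whose pattern was most like that of a member, among 11458 searched, were Gipc3 (r = 0.862) and Lrrc3b (0.855) for Adrb1, Pycard (0.747) and Agpat3 (0.726) for Adra1b, and Fzd2 (0.911) and Erlin2 (0.890) for Grk5. For the other members they were Etfdh and Art5 for Adra1a, Ppdpf and Dad1 for Gnas, Pigo and Rapgef1 for Adcy5, Wnk4 and Pcnt for Adcy6, Vps13d and Gatad2b for Pde3a, and Thap2 and Enox2 for Pde4d, with r from 0.801 to 0.931. These are the highest of many correlations over samples that share depth and adjustment.

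The rest of the pathway was followed in 13 lists holding 141 genes besides the 9, of which 130 could be tested. Of them 21 rose and 18 fell (30.0%, against 33.5% of all genes), 8 of them past the fold threshold, and their median log2 fold change was 0.07 against 0.05 for all genes. With quantile normalization the split was 18 higher and 26 lower. Beside these counts stand median log2 fold changes of 0.61 for the macrophage, 1.15 for the fibroblast and -0.27 for the cardiomyocyte markers, whose part in them was not tested.

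Of the other adrenergic receptor genes, 1 of 4 tested changed. Adra1d, the remaining alpha1 subtype, fell from 3.23 ± 0.57 to 1.65 ± 0.52 FPKM (log2 fold change -0.69 ± 0.11, limma adjusted p = 3.42e-05), with all 12 hypertensive-LVH samples below the control median and below the lowest control of 2.35 FPKM. The alpha2 genes Adra2b and Adra2c were under 1 FPKM in every sample, and Adrb3 was too low to be tested.

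Of 12 further G protein subunit genes 4 rose and 2 fell. Gnao1, Gnai3 and Gnai2, which encode alpha subunits of the inhibitory class, had log2 fold changes of 0.74, 0.37 and 0.27 (limma adjusted p = 0.00316, 0.00463 and 0.00110). Gnai2 was the most abundant of them, going from 225 ± 17.5 to 272 ± 30.8 FPKM. Gnb5 and Gna11, the latter a Gq class subunit, had log2 fold changes of -0.16 and -0.11 (adjusted p = 0.0421 and 0.0484). Without samples 4 to 6, Gnao1 and Gnai3 had adjusted p-values of 0.0763 and 0.0659. Gnb5 and Gna11 lost their calls without any 1 of the 4 sets, and in 12 and 15 of 24 fits without 1 mouse.

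Of 7 other adenylyl cyclase genes 3 rose and 0 fell. Adcy7 went from 4.88 ± 1.88 to 7.98 ± 2.49 FPKM (log2 fold change 0.65, limma adjusted p = 0.0114), Adcy4 from 15.1 ± 2.13 to 17.5 ± 1.79 FPKM (0.21, adjusted p = 0.0207) and Adcy2, under 0.6 FPKM in every sample, by 0.13 (adjusted p = 0.0482). The Adcy7 difference was 2.09 in samples 4 to 6 and 0.13 to 0.23 in the other sets, and without samples 4 to 6 it was 0.18 (adjusted p = 0.261). Without these samples Adcy4 was at 0.13 (adjusted p = 0.271) and Adcy2 at 0.03 (adjusted p = 0.642), and Adcy2 also lost its call in 16 of 24 fits without 1 mouse.

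Of 18 genes in the phosphodiesterase list 3 rose and 4 fell. Pde4a, which encodes another cAMP-specific enzyme of the same family as Pde4d, fell from 40.7 ± 4.47 to 25.5 ± 3.99 FPKM (log2 fold change -0.66 ± 0.08, limma adjusted p = 3.83e-06). Its highest hypertensive-LVH value was 29.0 FPKM and its lowest control value 33.8 FPKM, so the groups did not overlap. Pde4c and Pde2a, the latter stimulated by cGMP, had log2 fold changes of -0.29 and -0.26 (adjusted p = 0.00240 and 0.00732). Pde1b, Pde8a and Pde7a had log2 fold changes of 0.27, 0.22 and 0.16 (adjusted p = 0.0301, 0.00442 and 0.0456). Without samples 4 to 6, Pde1b was at 0.10 (adjusted p = 0.446), and Pde7a lost its call in 17 of 24 fits without 1 mouse. Without samples 7 to 9, Pde4c and Pde2a had adjusted p-values of 0.0552 and 0.0871.

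Of the other receptor kinase and arrestin genes 1 of 4 tested rose and 0 fell. It was Arrb2, which encodes beta-arrestin 2, from 11.4 ± 2.74 to 18.0 ± 5.60 FPKM (log2 fold change 0.59 ± 0.15, limma adjusted p = 0.00421), and without samples 4 to 6 its log2 fold change was 0.34 (adjusted p = 0.112). Grk2 and Grk3 were not analysed here.

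Of 9 genes for protein kinase A subunits and inhibitors 1 rose and 2 fell. The catalytic subunit gene Prkaca fell from 170 ± 12.4 to 139 ± 16.2 FPKM (log2 fold change -0.29, limma adjusted p = 4.19e-04), and the inhibitor gene Pkig by 0.18 on the log2 scale (adjusted p = 0.0352). The regulatory subunit gene Prkar1a rose from 204 ± 13.4 to 242 ± 27.5 FPKM (log2 fold change 0.24, adjusted p = 0.00194). Of 12 A-kinase anchoring genes, Akap2 rose (log2 fold change 0.80, adjusted p = 2.43e-04) and Akap1 fell (-0.25, adjusted p = 0.00943). Pkig lost its call in 9 of 24 fits without 1 mouse, and Akap1 had an adjusted p of 0.144 without samples 4 to 6.

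Of 8 genes for other cAMP effectors 2 rose and 2 fell. Popdc3 and Popdc2, members of the cAMP-binding Popeye family, had log2 fold changes of 0.31 and -0.27 (limma adjusted p = 0.00228 and 0.0115), and Hcn2, a pacemaker channel gene, of -0.32 (adjusted p = 0.0251). Of 8 CREB family and coactivator genes, Crem and Crtc2 rose by 0.28 and 0.26 on the log2 scale (adjusted p = 0.0139 and 0.00503). Without samples 4 to 6, the adjusted p-values of Popdc2, Hcn2, Crem and Crtc2 were 0.247, 0.154, 0.0596 and 0.0759. Of 10 immediate genes that cAMP is known to induce, 0 passed by limma with adjustment and 0 at an unadjusted p under 0.05, and the largest was Nr4a1 at 0.48 (adjusted p = 0.291).

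Of 14 genes for protein kinase A substrates and phosphatase regulators 2 rose and 4 fell. Tnni3, which encodes cardiac troponin I, fell from 6458 ± 618 to 4211 ± 609 FPKM (log2 fold change -0.63 ± 0.08, limma adjusted p = 8.06e-06), with the highest hypertensive-LVH sample at 5055 FPKM below the lowest control at 5226 FPKM. Pln, which encodes phospholamban, fell from 1672 ± 207 to 1343 ± 211 FPKM (-0.32, adjusted p = 0.00533), and the calcium channel subunit gene Cacnb2 had a log2 fold change of -0.33 (adjusted p = 0.00124). Mybpc3, which encodes cardiac myosin-binding protein C, and Ppp2ca had log2 fold changes of 0.21 and 0.11 (adjusted p = 0.0361 and 0.0196). Both lost their calls with median-ratio scaling and without 3 of the 4 sets, Pln had an adjusted p of 0.0937 without samples 7 to 9, and Tnni3 was at -0.39 with quantile normalization. Beside this list, 5 of 10 cardiomyocyte markers fell, and the median of the 10 was -0.27.

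In the alpha1 phospholipase C arm 1 of 16 genes rose and 0 fell, namely Prkcd, a protein kinase C gene, from 9.34 ± 1.42 to 13.1 ± 2.72 FPKM (log2 fold change 0.43, limma adjusted p = 0.00129), with 0.25 (adjusted p = 0.0443) without samples 4 to 6. Of 8 tested genes for catecholamine synthesis, uptake and breakdown 1 rose and 2 fell. Slc22a3, which encodes an extraneuronal monoamine transporter, fell from 2.68 ± 0.38 to 1.32 ± 0.32 FPKM (log2 fold change -0.67 ± 0.07, adjusted p = 1.05e-06), with no overlap between the groups. The degrading enzyme gene Maob had a log2 fold change of -0.33 (adjusted p = 0.00145).

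**Figure D4:**
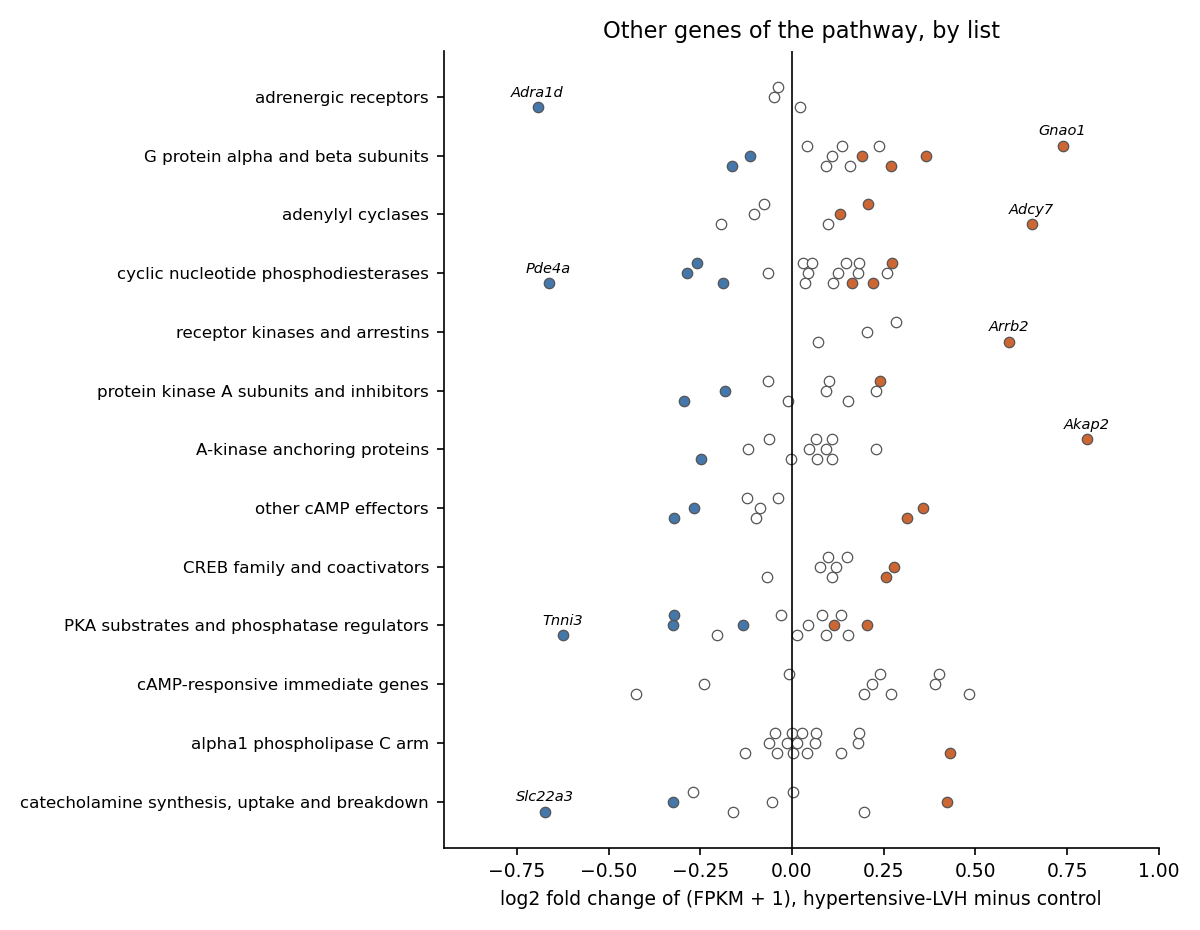
Log2 fold change of (FPKM + 1), hypertensive-LVH minus control (horizontal axis), of every tested gene in the 13 lists (rows), filled orange for higher and blue for lower at an adjusted p under 0.05 and open otherwise. The 8 labelled genes, among them Adra1d at -0.69, Pde4a at -0.66 and Gnao1 at 0.74, are those past the fold threshold of 0.5.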

How the data were processed

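Left ventricle RNA of 24 mice was enriched with oligo(dT) beads and sequenced. The submitters' processing notes name HISAT, Bowtie2 and RSEM, and the genome build is not given in the sources used here. The deposited table holds what the authors call FPKM, but with values below 0 and 4 sets of samples (see the exact ties above), so it is treated as another, adjusted unit and its adjustment step is not given in the sources used here. p-values take no account of that step. In 278 genes all values were whole hundredths, and these were left out of the count of ties.

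Groups follow the sample titles. Values below 0 were set to 0, log2(value + 1) was taken, and 14026 genes with a mean of at least 0.1 FPKM were tested with limma 3.58.1 in R 4.3.3 (moderated test with an intensity trend, two-sided, Benjamini-Hochberg over all genes). A log2 fold change on this scale understates the change of low genes. The group by set interaction was tested with limma's F test. Ratios and correlations were tested with 100000 permutations (Python 3.11.15), the correlations within each group and set. Code was tested on simulated data. Besides the 9 members, the genes named are up to 3 risen and 3 fallen genes with the largest log2 fold change per list among those called, and the 2 genes most correlated with each member. A few genes that this rule names are not reported here. Adra2b, Adra2c, Adrb3, Nr4a1 and Myl7 were named after their values were seen. The members and lists were chosen with earlier results of these data known. Alternatives were another pseudocount, filter, scaling and trend setting, the replicate number as a block, the set as a term, and leaving out each mouse or set. That each sample is 1 mouse is taken from the study's description of biological replicates. Fragment totals are unknown, so no counting interval is given.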

Additional observations from a re-analysis of the deposited data

Results flagged for a closer look

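The difference between the hypertensive-LVH and control groups was tested for being unequal in the 4 sets by limma's F test of the interaction. Of the 9 members and the 36 genes that the naming rule takes from the 39 called in the lists, 3 passed. The remaining called genes are not part of this count. Over all genes tested 7.49% passed, so that this count is near the background. For Adra1b F was 6.72 (adjusted p = 0.0410), with log2 differences of -0.59, -1.13, -0.17 and -0.39 in samples 1 to 3, 4 to 6, 7 to 9 and 10 to 12. For Adcy7 F was 24.7 (adjusted p = 1.61e-04), with 0.17, 2.09, 0.13 and 0.23. For Prkcd F was 6.5 (adjusted p = 0.0445), with 0.14, 0.98, 0.44 and 0.17. In all 3 the largest difference was in samples 4 to 6, and its cause was not tested.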

How the results depend on the processing

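Adrb1 and Adra1b stayed lower and past the adjusted p threshold under every alternative run, with log2 fold changes of -0.43 to -0.65 and -0.38 to -0.70 over the fits without one set of samples. The fold threshold of the study did not hold for either gene under all of them. Grk5 lost its limma call with quantile normalization (0.25, adjusted p = 0.0536) and with the set as a term (0.31, adjusted p = 0.0588). The set term cannot change a log2 fold change here. Grk5 also lost its call without samples 4 to 6 (0.15, adjusted p = 0.414) and without samples 7 to 9 (0.21, adjusted p = 0.22). Leaving out 1 mouse gave 0.27 to 0.35 and lost the Grk5 call in 11 of 24 fits (hypertensive-LVH 4, 5, 6, 7, 8 or 11, control 4, 5, 6, 8 or 9), with adjusted p from 0.0158 to 0.0725. Pde4d passed with quantile normalization (-0.25, adjusted p = 0.0218), without samples 1 to 3 (-0.32, adjusted p = 0.00257), and without hypertensive-LVH 1 or control 3, with -0.21 to -0.14 over the fits without 1 mouse. Gnas passed with quantile normalization (0.14, adjusted p = 0.00454), Pde3a changed sign without samples 7 to 9 (-0.0105), and the Adra1a to Adra1b ratio passed without samples 7 to 9 (0.52, permutation, adjusted p = 0.0254). Without 1 mouse, 2 to 4 of the 9 genes and 30 to 44 of the pathway genes passed, while 28.8% to 36.8% of all genes did. The pathway count of 39 was 25 without samples 4 to 6, where the share of all genes passing also went from 33.5% to 20.1%. The causes were not tested. No direction reversed among the 36 calls named from the lists.

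Whether the replicate number, which both groups share, pairs the samples could not be told. Deviations of same-numbered samples from their group means correlated at -0.557 to -0.001 (12 pairs, 0 over 0.1), and 0 samples correlated best with their own number. Same-numbered samples lie in the same set. For the 9 genes, the means of both groups within a set tended to move against each other. Negative correlations can therefore arise with or without pairing, and the check cannot decide. With the replicate number as a block, 2 of the 9 genes passed (Grk5 at 0.31, adjusted p = 0.115) and 23 of the pathway genes, while the share of all genes passing went from 33.5% to 20.1%. Such a block cannot change a log2 fold change, since each number holds 1 sample of each group. A ratio of Grk5 to Grk2 was planned and not run, since Grk2 is not analysed here. Leaving out both samples high in atrial markers was chosen after seeing the data.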
